A study of Mus musculus with 23 samples.

Results

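GABA receptors carry most fast and slow inhibition in the brain. GABA-A receptors are chloride channels built from several subunits around a pore, commonly with α, β and γ or δ members, and the α subunit largely sets where a receptor sits and which drugs it answers. GABA-B receptors are G protein-coupled receptors made of 1 GABBR1 and 1 GABBR2 chain, which open potassium channels and close calcium channels. The nucleus accumbens belongs to the ventral striatum and consists mainly of GABA-releasing medium spiny neurons, which inhibit each other. The arrays read bulk tissue, so the level of a subunit gene cannot be assigned to a cell type.

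The genes described here are 10 GABA receptor subunits, namely Gabra2, Gabra3, Gabra4, Gabra5, Gabrb1, Gabrb2, Gabrd, Gabrg1, Gabbr1 and Gabbr2, out of 22180 genes with a probe set of their own. They were taken by gene symbol, from a list drawn up with earlier results of these data known, and all 10 were measured, each by 1 probe set. Whole-transcript microarrays had been run on microdissected nucleus accumbens of C57BL/6J mice of about 15 weeks, with 1 array per mouse. About 5 weeks earlier every mouse had received an adeno-associated virus (AAV) in that region, carrying a short hairpin RNA against Nr1d1 (labelled knockdown) or a scrambled hairpin (control). Nr1d1 encodes REV-ERBα, a repressor of the circadian clock. There were 6 labelled-knockdown and 5 control females, and 6 labelled-knockdown and 6 control males. All 4 groups thus share the surgery and the virus. The labels do not give the promoter of the hairpin or the cells it reached. The treatment text names a postpartum day for males as well as females, and no use was made of reproductive state.

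Levels are the deposited log2 intensities, so a difference of 1 is a doubling, and n counts mice. The array medians lay between 6.11 and 6.17 in females and between 5.84 and 5.88 in males, so sex and array processing cannot be told apart in a level. Xist and Uty matched the labelled sex on 23 of 23 arrays. Nr1d1 itself averaged 9.99 ± 0.16 (SD, n = 6) in labelled-knockdown and 10.04 ± 0.07 (SD, n = 5) in control females. The male averages were 9.58 ± 0.13 (SD, n = 6) with the Nr1d1 hairpin and 9.59 ± 0.20 (SD, n = 6) with the scrambled one. No fall of the targeted RNA was detectable (95% intervals −0.24 to 0.13 in females and −0.19 to 0.17 in males, limma adjusted p = 0.963 and 0.997), so every direction below rests on the label. Of the medium spiny neuron markers 9 of 12 were measured, and their mean level lay between 10.05 and 10.82 on every array. Markers of cortical excitatory neurons, which belong to neighbouring tissue, were also present and uneven. Slc17a7, the vesicular glutamate transporter of cortical projection neurons, ranged from 8.92 to 11.13 in females and from 4.64 to 10.34 in males. The male levels of 4.64, 5.37 and 5.43 lay between the lower quartile (4.5 to 4.56) and the median of the male arrays. How far log2 steps at such low levels reflect background was not tested.

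**Figure D1:**
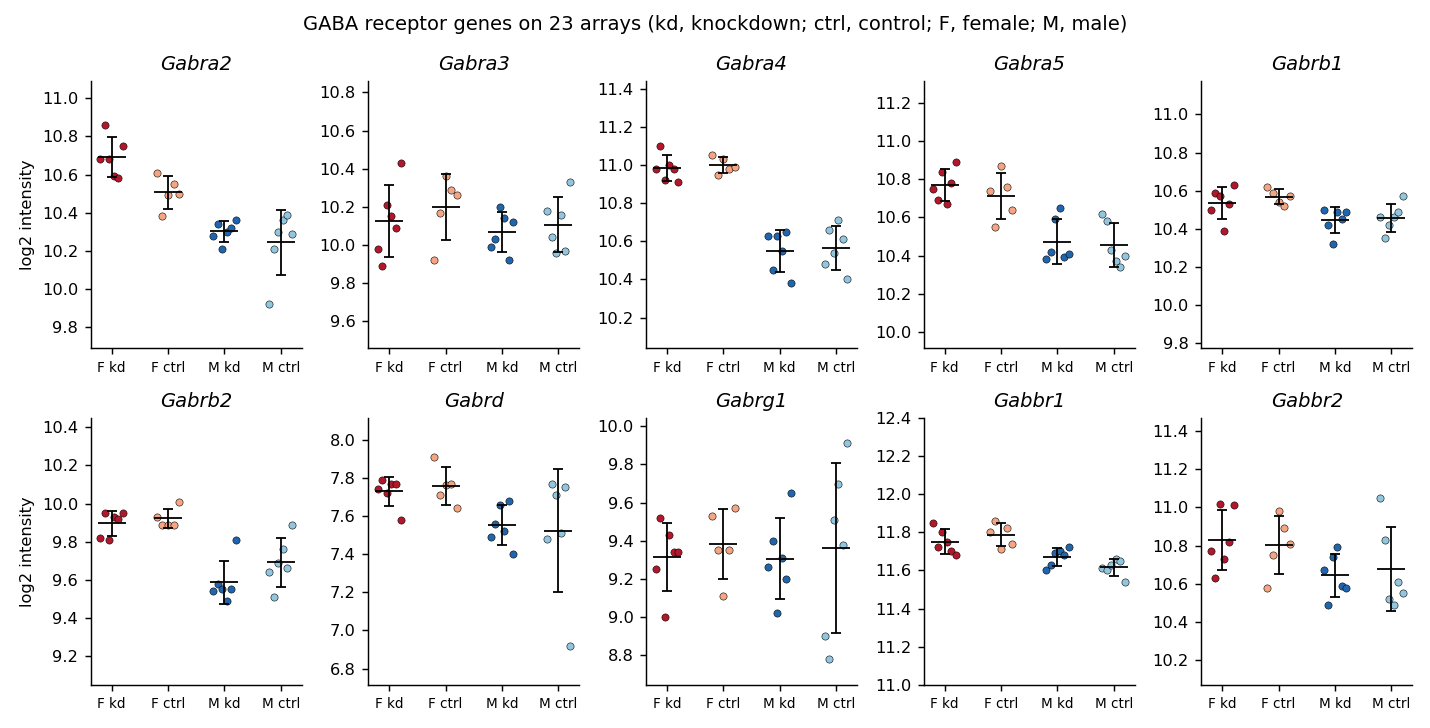
Log2 intensity of each of the 10 subunit genes (y axis, every panel 1.4 log2 units high) in the 4 groups (x axis), with 1 point per mouse, a horizontal mark at the mean and bars of 1 SD. The hairpin groups of a sex overlap in every panel, and the widest groups are the male controls of Gabrg1 (8.78 to 9.91) and Gabrd (6.92 to 7.77).

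Of the 10 genes 9 had group means above the upper quartile of every array, and the exception was Gabrd. The α subunit genes stood at similar levels in the hairpin groups of each sex. Gabra4, whose α4 subunit forms extrasynaptic receptors with δ in the striatum, averaged 10.98 ± 0.07 (SD, n = 6) in labelled-knockdown and 11.00 ± 0.04 (SD, n = 5) in control females. It averaged 10.55 ± 0.11 (SD, n = 6) in labelled-knockdown and 10.57 ± 0.12 (SD, n = 6) in control males. Gabrd, which encodes that δ subunit, averaged 7.73 ± 0.08 (SD, n = 6) in labelled-knockdown and 7.76 ± 0.10 (SD, n = 5) in control females. It averaged 7.55 ± 0.11 (SD, n = 6) in labelled-knockdown and 7.52 ± 0.32 (SD, n = 6) in control males, where a single array stood at 6.92. Gabbr1, the ligand-binding chain of the GABA-B receptor, had ranges of 0.12 to 0.17 log2 units within groups. Gabrg1, which encodes the γ1 subunit, had the widest range of the 10 in males, with 0.63 in the labelled-knockdown and 1.13 in the control group.

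The first comparison was that of the hairpins. No GABA receptor gene passed the test. By limma over all 41345 probe sets, 0 of the 10 passed an adjusted p of 0.05 in females, in males or in the average of both sexes, where 0% of all probe sets passed in each. At an unadjusted p under 0.05 there was 1 of the 10 in females, against 5.86% of all probe sets, 0 in males (4.71%) and 1 in the average (4.71%). In females 3 of the 10 lay above 0 and 7 below, with a median of −0.03 (0.0003 for all named genes). In males 4 lay above 0 and 6 below, with a median of −0.02 (0.003 for all named genes). No gene of the 10 had hairpin groups that did not overlap, a state met by 0.588% of probe sets in females and 0.109% in males.

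Gabra2 gave the smallest p. It encodes α2, an α subunit abundant at striatal synapses. Its level in labelled-knockdown females was 10.58 at the lowest, 10.68 at the median and 10.86 at the highest. The 5 control females stood at 10.61, 10.38, 10.49, 10.55 and 10.50, so that the top control array lay above the lowest labelled-knockdown ones. The difference was 0.18 (SE 0.07, 95% interval 0.04 to 0.33, unadjusted p = 0.0150, limma adjusted p = 0.839), with 6 of 6 females above the control mean. In males it was 10.21, 10.31 and 10.36 (lowest, median, highest) in the labelled-knockdown group and 9.92, 10.30 and 10.39 in controls, a difference of 0.06 (SE 0.07, adjusted p = 0.996). That male value rests on 1 array, since without male control replicate 1 it was −0.008. The average over both sexes was 0.12 (SE 0.05, adjusted p = 0.980), and the male and female differences were not shown to differ (−0.13, SE 0.10, adjusted p = 0.930).

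The remaining α genes moved less. Gabra3, an α subunit of receptors on cholinergic, monoaminergic and cortical neurons among others, differed by −0.08 (SE 0.09) in females and −0.04 (SE 0.09) in males. Gabra5, known for extrasynaptic receptors of hippocampal and deep cortical neurons, differed by 0.06 (SE 0.07) and 0.02 (SE 0.06). For Gabra4 both differences were −0.02 (SE 0.06 each). Among the β genes, whose products form the GABA binding site together with α, Gabrb1 differed by −0.03 (SE 0.05) in females and −0.01 (SE 0.05) in males. Gabrb2 differed by −0.03 (SE 0.06) in females and by −0.11 (SE 0.06, adjusted p = 0.996) in males, where its unadjusted p of 0.0861 was the lowest of the 10.

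Of the γ and δ genes, Gabrg1 differed by −0.07 (SE 0.16) in females and −0.06 (SE 0.15) in males, and Gabrd by −0.03 (SE 0.11) and 0.03 (SE 0.10). The wide Gabrg1 intervals, −0.40 to 0.26 in females and −0.37 to 0.26 in males, leave the largest room for a change that these arrays could not detect. The GABA-B genes had narrower ones for Gabbr1, at −0.04 (interval −0.12 to 0.05) in females and 0.06 (interval −0.03 to 0.14) in males. Gabbr2, the chain that couples to the G protein, differed by 0.03 (SE 0.10) and −0.03 (SE 0.09). None of the 10 differences was shown to differ between the sexes (lowest adjusted p = 0.908), and 0% of all probe sets passed there.

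**Figure D2:**
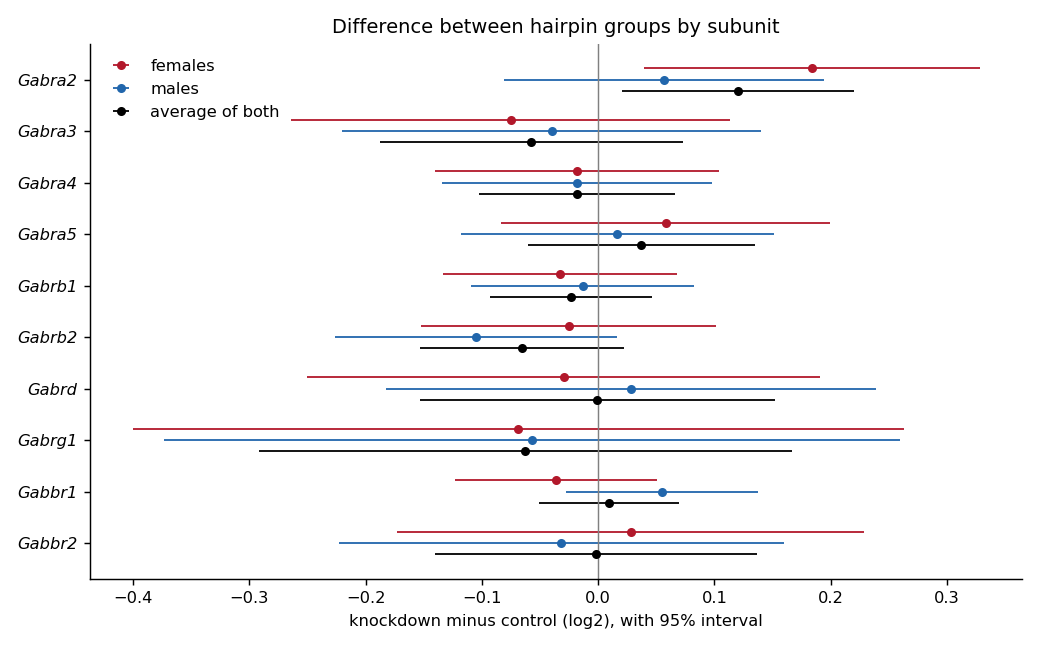
Labelled-knockdown minus control difference (x axis, log2, with 95% intervals from limma) for each subunit gene (y axis) in females, in males and in the average of both. Every interval includes 0 except that of Gabra2 in females (0.04 to 0.33) and in the average (0.02 to 0.22).

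Beyond the 10 genes, 38 of 43 other listed genes of GABA signalling were measured, and none of these passed the test in the hairpin comparisons. At an unadjusted p under 0.05 there was 1 of the 38 in females and 1 in males, against 5.86% and 4.71% of all probe sets. There were 0 in the average (4.71%) and 3 in the male minus female difference, beside 1150 of 22180 named genes. Of the 22180 named genes, 11125 lay above 0 in females and 11448 in males. In females 13 of the 38 lay above 0, and the smallest p values were those of Gabarapl2, an autophagy protein of the GABARAP family, at −0.12 (SE 0.05, adjusted p = 0.850), and of Gabrr2, a ρ subunit, at 0.17 (SE 0.09, adjusted p = 0.865). In males 23 lay above 0, with Zdhhc3, a palmitoyltransferase, at 0.16 (SE 0.06, adjusted p = 0.996) and Clptm1, which retains GABA-A subunits inside the cell, at 0.08 (SE 0.04, adjusted p = 0.996). In the average, Gabrg3 (γ3) stood at 0.11 (SE 0.05) and Gabrr1 at 0.11 (SE 0.06), both with an adjusted p of 0.980. The male minus female difference had its smallest p in Clptm1 at 0.16 (SE 0.06, adjusted p = 0.848) and Gabrr2 at −0.30 (SE 0.12, adjusted p = 0.852).

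The next comparison related the subunit genes to the uneven Slc17a7 level. Each probe set was fitted with 1 mean per group and 1 slope on the Slc17a7 level, so that the slope, in log2 units per log2 unit, compares arrays only within their group. Of the 10 subunit genes 3 passed the threshold, Gabrg1 and Gabrb2 with falling and Gabbr2 with rising levels, where 3.15% of 41344 probe sets passed in all, 1.55% rising and 1.6% falling. The other 7 did not pass, and the 10 slopes ran from −0.145 to 0.073 with a median of 0.009 (0.0002 for all named genes). In bulk tissue, fewer cells of a type and less RNA per cell cannot be told apart. Within the female groups 0 of the 10 passed (0.414% of all probe sets), within the male groups the same 3 (2.64%), and 0 in the male minus female difference of slopes (0.00242%). The Slc17a7 level itself is unevenly spread, with an SD around the group means of 0.70 in females and 2.09 in males. With this wider spread, the male arrays largely set the slope over all arrays. Calls over all arrays and within the male groups are thus not separate results. A call over all arrays does not by itself show a slope in females.

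Gabrg1 had the steepest slope of the 10. The γ1 subunit is a γ variant of limited distribution that is known from septal, amygdalar and hypothalamic regions and from some glia. In male controls it stood at 8.90, 8.78, 9.51, 9.70, 9.38 and 9.91 in replicates 1 to 6, where Slc17a7 stood at 10.34, 10.18, 5.43, 8.01, 6.17 and 4.64. The replicates with the most Slc17a7, 1 and 2, thus had the least Gabrg1, and replicate 6, with the least Slc17a7, had the most. Among labelled-knockdown males the lowest Gabrg1 level, 9.02, was on the array with the highest Slc17a7 (9.97) and the highest, 9.65, on that with the lowest (5.37). The slope was −0.145 (SE 0.023, 95% interval −0.193 to −0.097, limma adjusted p = 0.000642) over all 23 arrays, and −0.140 (SE 0.024, adjusted p = 0.00204) within the male groups. Within the female groups it was −0.194 (SE 0.077, adjusted p = 0.445). The male and female slopes were not shown to differ (difference 0.054, SE 0.081, adjusted p = 0.993). Over all arrays the call held without each array in turn, with slopes of −0.160 to −0.129 and adjusted p up to 0.00714. The male value had an adjusted p of 0.0589 without the 2 arrays farthest from their group mean (labelled-knockdown male replicate 6 and control male replicate 1), and of 0.0811 without male control replicates 1 and 6.

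Gabrb2, which encodes the β2 subunit, also fell with Slc17a7. Its male control levels were 9.64, 9.51, 9.69, 9.76, 9.66 and 9.89 in the same order of replicates, and the labelled-knockdown male with the lowest Slc17a7 had 9.81, above the 9.49 to 9.58 of the other 5. The slope was −0.045 (SE 0.011, adjusted p = 0.0240) over all arrays, −0.047 (SE 0.012, adjusted p = 0.0371) in males and −0.032 (SE 0.038, adjusted p = 0.947) in females. The call over all arrays ended without male control replicate 2 (adjusted p = 0.115), without male control replicate 6 (adjusted p = 0.116) and without labelled-knockdown male replicate 6 (adjusted p = 0.156), while the slope stayed between −0.052 and −0.037. It also ended with Neurod6, a transcription factor of cortical neurons, in place of Slc17a7 (adjusted p = 0.0636), with the mean of the other cortical markers (adjusted p = 0.0838), without male controls 1 and 6 (adjusted p = 0.0995) and without the 2 farthest arrays (adjusted p = 0.202). The male Gabrb2 call ended in 5 of the 23 runs without 1 array (adjusted p up to 0.225).

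Gabbr2 rose with Slc17a7. Its 5 control females stood at 10.58, 10.75, 10.98, 10.89 and 10.81, in the same order of rank as their Slc17a7 levels of 9.40, 10.46, 11.05, 10.57 and 10.48. In male controls it was 11.05 and 10.83 on the arrays with Slc17a7 above 10, and 10.49 to 10.61 on the other 4. The slope was 0.073 (SE 0.017, 95% interval 0.037 to 0.109, adjusted p = 0.0191) over all arrays, 0.204 (SE 0.051, adjusted p = 0.0922) in females and 0.060 (SE 0.016, adjusted p = 0.0469) in males. The male minus female difference of slopes was −0.144 (SE 0.053, adjusted p = 0.605). Without male control replicate 1 the call over all arrays ended (slope 0.058, adjusted p = 0.132), as it did without male controls 1 and 6 (adjusted p = 0.142) and without the 2 farthest arrays (adjusted p = 0.0967). The male call ended with array weights (adjusted p = 0.0901) and after quantile normalization (adjusted p = 0.0606). It also ended in 18 of the 23 runs without 1 array. Some of these runs left out a female array, which leaves the male slope itself unchanged. There the adjusted p, 0.0469 with all arrays, only crossed the nearby threshold.

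**Figure D3:**
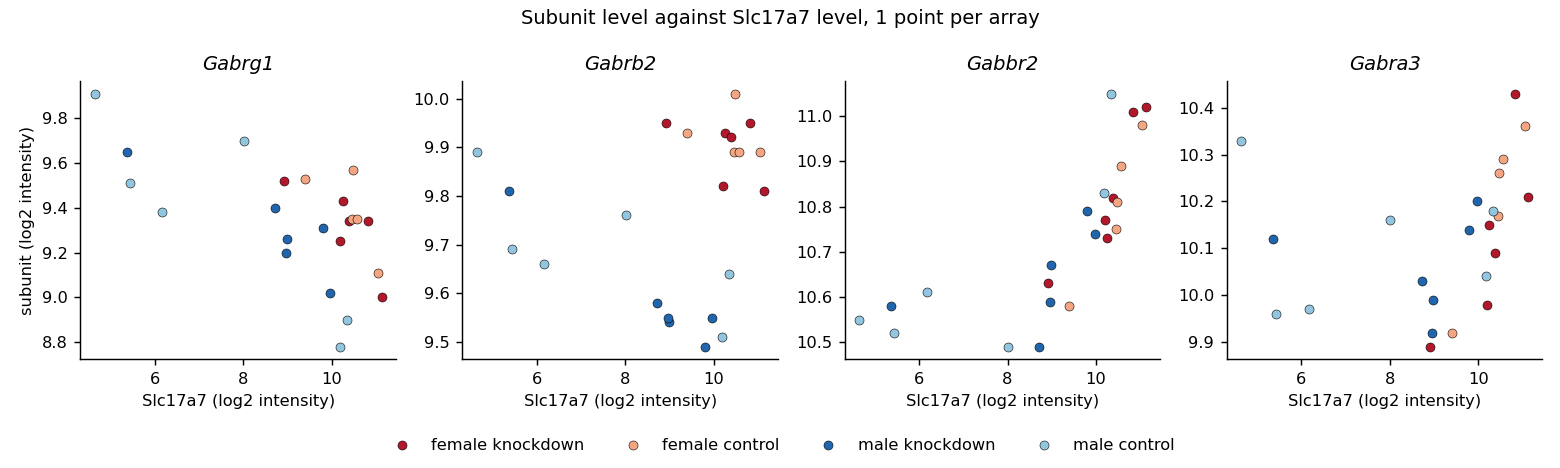
Log2 intensity of Gabrg1, Gabrb2, Gabbr2 and Gabra3 (y axes, not to a common scale) against that of Slc17a7 (x axes) on 23 arrays, coloured by sex and hairpin. The 4 lowest Gabrg1 points, from 8.78 to 9.02, lie at Slc17a7 levels of 9.97 or more, while Gabbr2 stays between 10.49 and 10.67 where Slc17a7 is below 9 and reaches 11.05 above it.

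The plot of levels against Slc17a7 shows that log2 Gabbr2 was flat at low Slc17a7 and steep at high Slc17a7. The fits were therefore repeated with Slc17a7 on the linear intensity scale, a choice made after seeing the data, with slopes per 1000 intensity units. On that scale Gabbr2 had a slope of 0.29 (SE 0.03, adjusted p = 1.61e-05) over all arrays, 0.26 (SE 0.05, adjusted p = 0.00531) in females and 0.32 (SE 0.05, adjusted p = 0.000738) in males. Gabrg1 kept its call, at −0.43 (SE 0.07, adjusted p = 0.000979), and Gabrb2 lost its own, at −0.10 (SE 0.04, adjusted p = 0.193). Gabra5 passed only on this scale and with other cortical measures. Its linear slope was 0.15 (SE 0.04, adjusted p = 0.0271), against 0.040 (SE 0.014, adjusted p = 0.149) on the log2 scale.

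Of the other α genes, Gabra2 had a slope of −0.042 (SE 0.014, adjusted p = 0.128), which passed with Neurod6 (adjusted p = 0.0284) or the mean of the other cortical markers (adjusted p = 0.0239) as the measure. Gabra3 had a slope of 0.222 (SE 0.057, adjusted p = 0.109) within the female groups and −0.002 (SE 0.018, adjusted p = 0.985) within the male groups. The difference of these slopes was −0.224 (SE 0.060, unadjusted p = 0.00120), with an adjusted p of 0.334. Female Gabra3 levels ran from 9.89 at a Slc17a7 level of 8.92 to 10.43 at one of 10.83. In males the highest Gabra3 level, 10.33, was on the array with the lowest Slc17a7. Gabra4 and Gabrd, the α4 and δ pair, had slopes of 0.020 (SE 0.014) and 0.039 (SE 0.025), Gabrb1 one of −0.018 (SE 0.011) and Gabbr1 one of −0.001 (SE 0.010), all with adjusted p of 0.521 or more. The interval of Gabbr1, −0.022 to 0.020, was the narrowest of the 10.

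**Figure D4:**
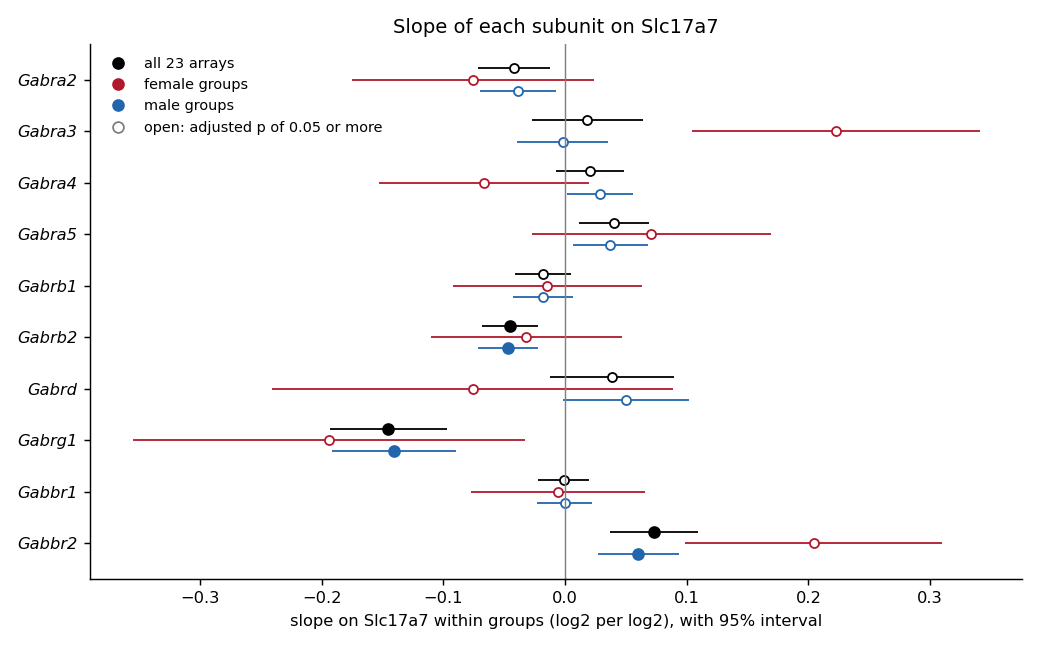
Slope of each subunit gene on Slc17a7 within groups (x axis, log2 per log2, with 95% intervals from limma) over all 23 arrays, within the female and within the male groups, with filled points where the adjusted p was under 0.05. Gabrg1 lies lowest at −0.145 and Gabbr2 highest at 0.073 over all arrays, and Gabra3 has a female slope of 0.222 beside a male slope of −0.002.

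The promoters of the genes with the steepest called slope in each direction are shown because they differ in base composition. They are the 250 bases before the RefSeq start site in GRCm38.p6, read 5′ to 3′ on the minus strand, at chr5:70842618-70842867 for Gabrg1 and chr4:46991715-46991964 for Gabbr2, with CG dinucleotides in capitals.
Gabrg1: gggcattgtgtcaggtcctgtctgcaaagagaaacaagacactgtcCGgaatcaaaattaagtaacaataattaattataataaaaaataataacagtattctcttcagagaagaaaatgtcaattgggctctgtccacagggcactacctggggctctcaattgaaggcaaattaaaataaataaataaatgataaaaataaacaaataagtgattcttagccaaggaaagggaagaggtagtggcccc
Gabbr2: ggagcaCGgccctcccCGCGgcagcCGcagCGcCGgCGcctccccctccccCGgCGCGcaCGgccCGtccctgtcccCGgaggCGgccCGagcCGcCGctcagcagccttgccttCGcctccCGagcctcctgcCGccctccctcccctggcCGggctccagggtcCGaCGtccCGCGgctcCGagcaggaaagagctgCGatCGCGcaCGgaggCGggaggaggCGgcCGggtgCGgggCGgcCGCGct
The Gabrg1 stretch held 1 CG dinucleotide at 35.6% G and C, and the Gabbr2 stretch 37 at 80.8%. Of the 10 genes 9 were matched in the promoter table, with 13 windows of 300 bases that run 250 before to 50 after a start site. In these windows the count of CG dinucleotides was 46 for Gabbr2, 25 for Gabra2, 18 for Gabbr1, 3 for Gabrg1 and 0 in both windows of Gabra3, against quartiles of 3 and 20 over 32851 windows. Gabrb2, which also fell with Slc17a7, had 11, 9 and 9. The count was 12 for Gabra4, 13 for Gabra5, and 25 and 9 for Gabrb1. A relation between base composition and slope was not tested. The core of the REV-ERB and ROR site, AGGTCA, was searched on both strands together with the extended REV-ERB and ROR site, which contains it, and the E-box CACGTG. No match lay in the 13 windows, where 16.3%, 0.219% and 7.15% of all windows held one. That says only that these letters are not in these windows.

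Of the 10 genes 4 lie close together on chromosome 5 in the GRCm38.p6 gene table. Gabrg1 neighbours Gabra2, and Gabra4 neighbours Gabrb1, with Cox7b2 between the pairs. Their slopes on Slc17a7 were −0.145, −0.042, 0.020 and −0.018 for Gabrg1, Gabra2, Gabra4 and Gabrb1, and of these only that of Gabrg1 passed. Differences between these slopes were not tested. By the cosine between levels centred on their group means over 23 arrays, a description that runs from −1 to 1, Gabrb2 and Gabrg1 were the most alike pair at 0.84. Gabra5 and Gabbr2 followed at 0.76, and Gabra4 and Gabrd at 0.63. Gabrg1 and Gabbr2 were the most opposed, at −0.75. Among all named genes those most like Gabrg1 were AW551984 and Npy2r, a neuropeptide Y receptor (both 0.94), and those most like Gabbr2 were the kinase gene Mapk11 and the synaptic vesicle gene Rph3a (both 0.95). For Gabrb2 they were Slc35g2 and Klhl5 (both 0.90). For Gabra2 they were Adgrl3, a latrophilin, at 0.89 and Senp7, a SUMO protease, at 0.84, and for Gabra3 Cadps, a vesicle priming factor, at 0.92 and Sphkap at 0.89. For Gabra4 they were Ppp3ca, a calcineurin subunit, at 0.88 and Gm10754 at 0.81, and for Gabra5 Lrrtm2, a synaptic adhesion protein, at 0.86 and the serotonin-gated channel gene Htr3a at 0.85. The list ended with Rxylt1 (0.84) and U2surp (0.78) for Gabrb1, the formin gene Inf2 (0.94) and Arhgap10 (0.92) for Gabrd, and Klhdc8b (0.84) and Slc25a34 (0.79) for Gabbr1. The 23 arrays share their Slc17a7 differences in all of these values. Those of Gabrd also include the single male control array at 6.92, far from its group, and the cosines were not repeated without it.

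Of the 38 other genes of GABA signalling, 3 rose and 10 fell with Slc17a7, where 1.55% of all probe sets rose and 1.6% fell, with a median slope of −0.013 (0.0002 for all named genes). Gad1, Gad2, Abat, Aldh5a1, Gabre, Hap1, Gphn and Kcnj9 are named here after their values were seen. Their slopes over all arrays were not followed under other settings or without single arrays, so how stable they are is not known. All 5 genes of GABA synthesis, packaging and breakdown fell. They were the glutamate decarboxylases Gad1 at −0.058 (SE 0.012) and Gad2 at −0.059 (SE 0.014), the vesicular transporter Slc32a1 at −0.076 (SE 0.014), and the GABA-degrading enzymes Abat at −0.057 (SE 0.011) and Aldh5a1 at −0.074 (SE 0.017), with adjusted p from 0.00215 to 0.0223. Within the female groups 0 of these 5 passed (0.414% of all probe sets), and within the male groups 4 (2.64%). With the mean over all its probe sets in place of the brightest, Slc32a1 no longer passed over all arrays (−0.028, adjusted p = 0.444). Slc6a11, the GABA transporter GAT-3 of astrocytes, fell at −0.170 (SE 0.022, adjusted p = 8.03e-05), and Slc6a12 and Slc6a13 did not pass. Within the female groups the Slc6a11 slope was −0.043 (SE 0.068, limma adjusted p = 0.967).

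Among subunit genes outside the 10, Gabrq, which encodes the θ subunit, fell at −0.227 (SE 0.039, adjusted p = 0.00122), a call that ended on the linear Slc17a7 scale (adjusted p = 0.0666) and without the 2 farthest arrays (adjusted p = 0.0950). Gabre, which encodes ε, fell at −0.120 (SE 0.026, adjusted p = 0.0109). Gabrq is the neighbour of Gabra3 on the X chromosome, whose slope over all arrays was 0.018 (SE 0.022). Of 14 anchoring and trafficking genes 2 fell, Iqsec3, a regulator of the inhibitory postsynapse, at −0.064 (SE 0.013) and Hap1, which carries receptors along microtubules, at −0.074 (SE 0.018). The Iqsec3 call ended on the linear Slc17a7 scale (adjusted p = 0.284). Within the female groups the Iqsec3 slope was 0.015 (SE 0.039, limma adjusted p = 0.986). Gephyrin, the inhibitory scaffold coded by Gphn, had −0.030 (SE 0.012, adjusted p = 0.235). On the GABA-B side the 3 measured GIRK potassium channel genes, which that receptor opens, all rose, with Kcnj3 at 0.218 (SE 0.027, adjusted p = 6.94e-05), Kcnj6 at 0.206 (SE 0.030, adjusted p = 0.000308) and Kcnj9 at 0.10 (SE 0.025, adjusted p = 0.0259). In females Kcnj3 (0.448, SE 0.076, adjusted p = 0.00893) and Kcnj6 (0.451, SE 0.086, adjusted p = 0.0178) passed as well. The female Kcnj3 call ended without control female replicate 1 or labelled-knockdown female replicate 3 (adjusted p up to 0.0956). That of Kcnj6 ended without any 1 of labelled-knockdown females 2, 3 and 6 and control females 1 and 3 (adjusted p up to 0.131). Within the male groups 11 of the 38 passed, against 2.64% of all probe sets, and those with the smallest p were Slc6a11 (−0.183), Kcnj3 (0.195), Kcnj6 (0.181), Iqsec3 (−0.072), Gabrq (−0.236) and Slc32a1 (−0.071), with adjusted p from 6.17e-05 to 0.00677. The male call of Slc32a1 ended without male control replicate 1 (adjusted p = 0.0626), without male controls 1 and 6 (0.0892) and without the 2 farthest arrays (0.0857). It also ended with the mean over all its probe sets (−0.022, adjusted p = 0.638). The male call of Gabrq ended without the 2 farthest arrays (adjusted p = 0.160). None of the 38 male minus female differences of slopes passed, the smallest p being those of Kcnj3 at −0.253 (SE 0.079, adjusted p = 0.472) and Hap1 at 0.160 (SE 0.052, adjusted p = 0.496). Of the 3 Kctd genes, which code for auxiliary GABA-B subunits, and the 2 chloride transporter genes, none passed.

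**Figure D5:**
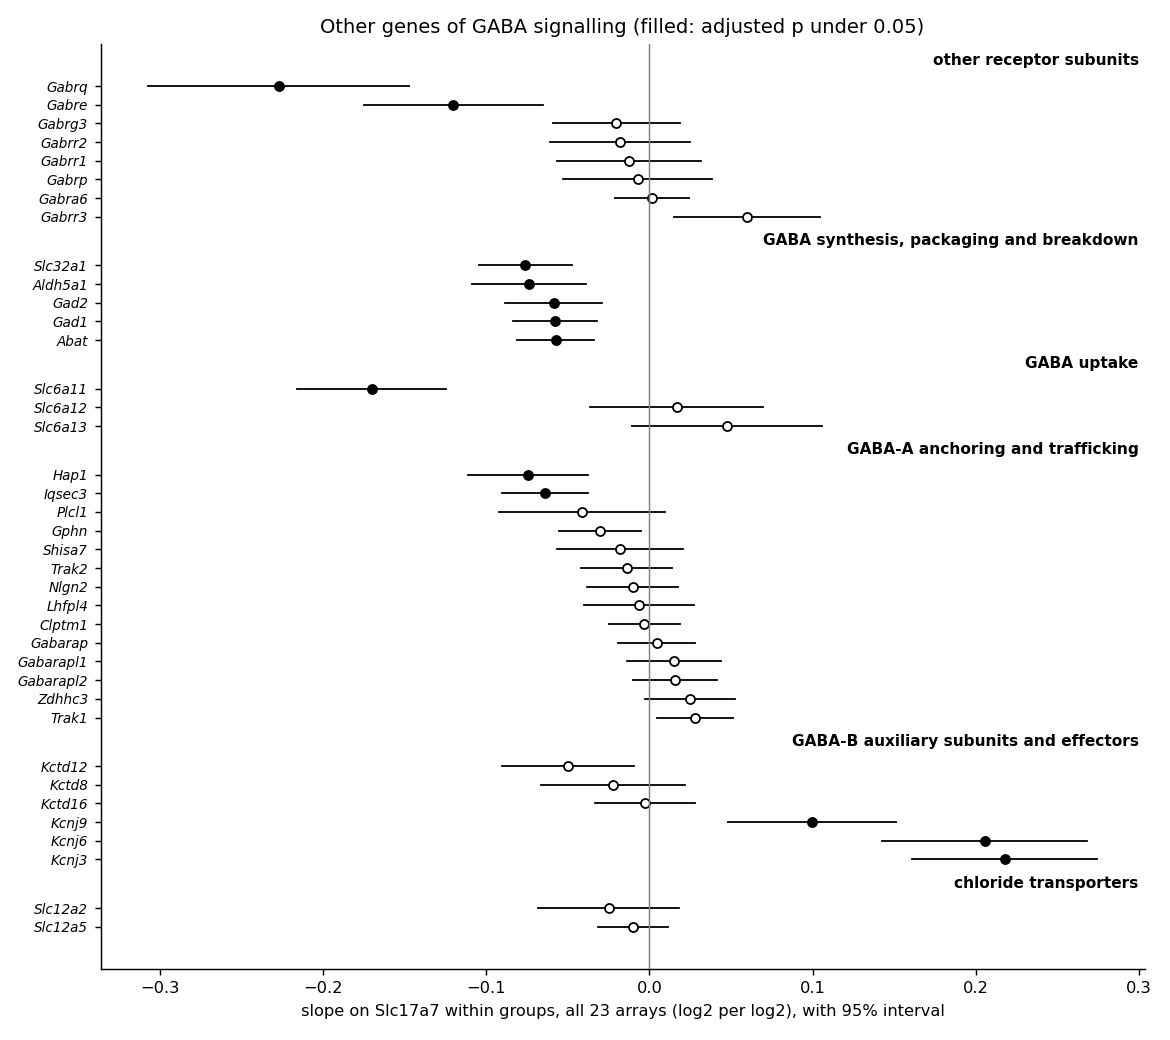
Slope on Slc17a7 within groups over 23 arrays (x axis, log2 per log2, with 95% intervals from limma) for 38 other genes of GABA signalling (y axis), grouped by role and filled where the adjusted p was under 0.05. The 5 synthesis, packaging and breakdown genes lie together between −0.076 and −0.057, and the GIRK channel genes Kcnj3 and Kcnj6 lie highest.

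Markers of several cell types moved with the same measure, and their part in these slopes was not tested. Of the other 8 measured cortical excitatory markers, 5 rose and 0 fell, by 0.60 per log2 unit for Neurod6 (SE 0.05). The cortical list mean ran from 7.39 to 8.46 in labelled-knockdown and 7.53 to 8.27 in control females, and from 6.33 to 7.90 in labelled-knockdown and 6.22 to 8.37 in control males. Of 9 medium spiny neuron markers none passed, with slopes of −0.020 to 0.024 over all arrays. Within the female groups all 9 lay below 0 (median −0.093, range −0.187 to −0.071, 3 at an unadjusted p under 0.05), beside −0.121 for Gad1 and −0.103 for Gad2. Of 22179 named genes, 10521 lay below 0 there (median 0.004), and 2110 had an unadjusted p under 0.05. Within the male groups 7 of the 9 lay above 0 (median 0.012), beside 11083 of the 22179 named genes. Gad1 and Gad2 lay below 0 there as well, at −0.052 (limma adjusted p = 0.0255) and −0.054 (limma adjusted p = 0.057). Of 6 markers fixed for the septum and pallidum, which adjoin the accumbens, 1 fell, the interneuron factor Lhx6 at −0.156 (SE 0.020, adjusted p = 8.03e-05), and their list mean ran from 6.90 to 7.18 in labelled-knockdown and from 6.77 to 7.43 in control males. Of 7 interneuron markers Chat (−0.118, SE 0.024) and Kit (−0.062, SE 0.011) fell and Vip (0.261, SE 0.029) rose. None of the 6 astrocyte, 4 oligodendrocyte, 5 microglial and 4 endothelial markers passed, though 5, 4, 4 and 3 of them lay below 0. At an unadjusted p under 0.05 there were 3, 2, 2 and 0, beside 3779 of 22179 named genes. The same count was 4 of 6 for septal and pallidal and 5 of 7 for interneuron markers. It was 6 of 8 for cortical and 0 of 9 for medium spiny neuron markers. The lowest adjusted p was 0.0575 for astrocyte and 0.0889 for oligodendrocyte markers. Whether the content of any cell type changed with Slc17a7 was not tested.

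With Slc17a7 as a covariate, 0 of the 10 subunit genes passed in the hairpin comparisons, as without it. The average difference of Gabra2 was then 0.14 (SE 0.04, adjusted p = 0.968). The male difference of Gabrg1 was 0.11 (SE 0.10, adjusted p = 0.989), of opposite sign to the value without the covariate, and that of Gabbr2 was −0.12 (SE 0.07, adjusted p = 0.989).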

How the data were processed

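Total RNA of microdissected nucleus accumbens was labelled from 150 ng and hybridised to whole-transcript arrays, per the labels. Each deposited file holds log2 intensities, 1 per probe set, processed by the authors with Transcriptome Analysis Console, per the submitters' processing notes. Version, summarisation and normalization were not given in the sources used here. Of 41345 probe sets, 23521 carry 1 gene symbol, 1814 several and 16010 none, and each gene was read from its brightest single-symbol probe set. The 4 group means were fitted to all 23 arrays with limma 3.58.1 in R 4.3.3 (19 residual degrees of freedom, prior 3.24), after the procedure was tested on simulated data. P-values were adjusted over all probe sets by Benjamini-Hochberg, with a threshold of 0.05. Slopes added the Slc17a7 level to the group means, in common or per sex. By rule the text names all 10 subunit genes, Nr1d1, Slc17a7, the other GABA genes past the threshold in each comparison (the 6 with the smallest p where more passed, or 2 where none did) and the 2 genes most like each subunit gene. The members and lists were chosen with earlier results of these data known. Alternatives were array weights, quantile normalization, a level filter, a replicate block, other cortical measures, left-out arrays and, chosen after seeing the data, linear Slc17a7. Of the 43 other GABA genes listed, 5 were not analysed here. Labels do not say whether mice shared litters, so p-values measure the spread between these samples.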

Additional observations from a re-analysis of the deposited data

Results flagged for a closer look

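Each of 48 groups of values, for the 10 subunit genes, Nr1d1 and Slc17a7, was examined for a single array far from the rest, with Dixon's criterion, which marks about 1 in 20 groups by chance, and 5 were found. Gabrb2 stood at 9.81 in labelled-knockdown male replicate 6, where the nearest array of the group had 9.58. On the same array Slc17a7 stood at 5.37, with the nearest at 8.72. Gabrd was low at 7.58 in labelled-knockdown female replicate 6 (nearest 7.72) and at 6.92 in control male replicate 6 (nearest 7.48). Nr1d1 was low at 9.93 in control female replicate 4 (nearest 10.05). What set these arrays apart was not tested.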

How the results depend on the processing

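In the hairpin comparisons no subunit gene passed the threshold under any of 10 other settings or 23 runs without 1 array (lowest adjusted p = 0.490 over all of these). Over all probe sets, 0 passed in females, in males and in the male minus female difference, with 0 to 1 in each without 1 array, and 0 in the average throughout the runs without 1 array. There was 1 in males and 1 in the male minus female difference without male controls 1 and 6, and 1 in that difference with array weights. The slopes depended more on the setting. Over all arrays 1301 probe sets passed, against 690 without male controls 1 and 6, 552 without the 2 farthest arrays, and 821 to 1437 without 1 array, and the subunit genes numbered 3, against 1, 1 and 2 to 3. In males 1092 probe sets passed, against 429, 338 and 594 to 1208, and 3 subunit genes, against 0, 0 and 1 to 3, and 1 with array weights. In females 171 passed, against 260 with Neurod6, 302 with the other cortical markers, 306 with array weights, 314 among probe sets at or above the median level, 342 on the linear scale and 12 to 229 without 1 array. Of the subunit genes 0 passed in females, against 2 with array weights or the median level filter, 1 with Neurod6, the cortical mean, the linear scale or either pair of arrays left out, and 0 to 1 without 1 array. The male minus female slope passed for 1 probe set, against 0 with the cortical mean, 3 with array weights, 9 with the filter, 35 on the linear scale and 1 to 2 without 1 array. The cause was not tested.

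The labels number the replicates without saying whether the numbers pair mice, and the main fits used no pairing. Weak correlations between same-numbered arrays cannot exclude a pairing. Over 11 same-numbered pairs the correlation of deviations ran from −0.096 to 0.135, 2 were over 0.1, and 2 were best with their own number. With the replicate block 152 probe sets and 0 subunit genes passed in the slope over all arrays, at −0.169 for Gabrg1 (adjusted p = 0.0591), −0.031 for Gabrb2 (adjusted p = 0.738) and 0.101 for Gabbr2 (adjusted p = 0.186). The calls of Slc6a11 (adjusted p = 0.0520), Slc32a1 (0.114), Gabrq (0.115) and Iqsec3 (0.431) ended as well, while those of Kcnj3 and Kcnj6 held.

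Of single genes, 44 values changed sign, none past the threshold in either setting. With array weights, the male slope was 0.00079 for Gabra3. On the linear Slc17a7 scale, the male minus female slope was 0.058 for Gabbr2, −0.14 for Gabra2, 0.10 for Gabra5, −0.37 for Gabrg1, −0.012 for Hap1, 0.33 for Kcnj3 and the slope over all arrays was −0.010 for Gabra4 and the male slope was 0.041 for Gabra3. With the mean of the other cortical markers, the male minus female slope was −0.050 for Gabra2, −0.011 for Gabrg1 and the male slope was 0.025 for Gabra3. With Neurod6, the male minus female slope was −0.0094 for Gabra2 and the male slope was 0.0065 for Gabra3. After quantile normalization of all arrays, the average difference was 0.0058 for Gabbr2, 0.0059 for Gabrd and the female difference was 0.0024 for Gabra4, 0.0021 for Gabrb2 and the male minus female difference was −0.018 for Gabrb1, −0.017 for Gabrg1 and the male minus female slope was −0.00088 for Gabbr1 and the female slope was 0.00014 for Gabbr1. With the replicate block, the average difference was 0.014 for Gabrd and the female difference was −0.0080 for Gabbr2 and the slope over all arrays was 0.013 for Gabbr1, −0.0076 for Gabrd. With Slc17a7 as a covariate, the average difference was 0.015 for Gabrg1 and the male difference was −0.030 for Gabra5, 0.0079 for Gabrb1, −0.017 for Gabrd, 0.11 for Gabrg1. Without male controls 1 and 6, the average difference was −0.00050 for Gabbr1, 0.029 for Gabbr2 and the male difference was 0.031 for Gabbr2, −0.013 for Gabra2, 0.034 for Gabra3, 0.015 for Gabrb1, −0.13 for Gabrd and the male minus female difference was 0.0028 for Gabbr2, −0.10 for Gabrd and the male minus female slope was −0.0020 for Gabbr1 and the male slope was 0.012 for Gabra3. Without the 2 farthest arrays, the slope over all arrays was 0.0066 for Gabbr1 and the male slope was 0.0092 for Gabbr1. Without 1 array in turn, the average difference ran from −0.00050 to 0.019 for Gabbr1, from −0.030 to 0.036 for Gabbr2, from −0.061 to 0.024 for Gabrd, and the male minus female slope ran from −0.010 to 0.035 for Gabbr1, from −0.015 to 0.059 for Gabra2, from −0.031 to 0.013 for Gabrb1. Likewise, the female slope ran from −0.035 to 0.0097 for Gabbr1, from −0.031 to 0.013 for Gabrb1, and the slope over all arrays ran from −0.0078 to 0.0042 for Gabbr1, from −0.0047 to 0.054 for Gabrd. Likewise, the male slope ran from −0.0080 to 0.0057 for Gabbr1, from −0.011 to 0.020 for Gabra3, and the female difference ran from −0.028 to 0.072 for Gabbr2, from −0.059 to 0.0083 for Gabrd. Likewise, the male difference ran from −0.069 to 0.043 for Gabbr2, from −0.0083 to 0.086 for Gabra2, from −0.069 to 0.0047 for Gabra3, from −0.052 to 0.015 for Gabra4, from −0.019 to 0.049 for Gabra5, from −0.035 to 0.012 for Gabrb1, from −0.092 to 0.078 for Gabrd, from −0.17 to 0.053 for Gabrg1, and the male minus female difference ran from −0.10 to 0.015 for Gabbr2, from −0.012 to 0.10 for Gabra3, from −0.0093 to 0.045 for Gabrb1, from −0.063 to 0.11 for Gabrd, from −0.10 to 0.12 for Gabrg1.

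Each group holds 5 or 6 mice, which limits the precision, and the arrays give no counts. The Slc17a7 slopes in males, which largely set those over all arrays, rest on few arrays with low or high levels. The lowest of these levels lay below the male array medians.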
